A study of Mus musculus with 24 samples.

Results

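Slc1a3, Slc1a2, Glul, Slc38a3, Slc6a11 and Slc6a9 encode the proteins by which astroglia clear glutamate, GABA and glycine from the extracellular space and return glutamine to neurons. These 6 genes were taken by symbol from the 48321 gene symbols of the count tables, and all 6 were measured in every sample. RNA came from sorted hippocampal GFP+ cells of adult C57BL/6 mice. All mice carried Hes5::CreERT2, a tamoxifen-inducible Cre under Hes5, which Notch signalling activates in neural stem cells, together with the reporter Rosa26R-CAG::GFP. Wild-type (WT) mice were Notch2 wt/wt and conditional knockout (CKO) mice were Notch2 flox/flox. Both genotypes received tamoxifen for 5 days before a chase of 1 day. Each sample was a pool of cells from several animals, with 3 pools per genotype. Each pool had 2 libraries, both labelled as made from new cDNA, and each library was sequenced on 2 lanes. Levels are given in CPM, a gene's count relative to the library's reads in genes, scaled between samples, and the comparison asked how these genes stand in Hes5-lineage cells with and without Notch2.

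Glutamate released at synapses is removed mainly by the sodium-driven transporters GLAST (Slc1a3) and GLT-1 (Slc1a2) of astrocytes. Glutamine synthetase (Glul) converts the captured glutamate to glutamine, and the system N transporter SNAT3 (Slc38a3) lets glutamine out for neurons to reuse. GAT3 (Slc6a11) takes up GABA and GlyT1 (Slc6a9) takes up glycine. In the adult hippocampus GLAST also marks radial glia-like stem cells, and glutamine synthetase is found in oligodendrocytes as well, so none of these genes belongs to stem cells alone.

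Pools held 40366579 to 53984963 reads in genes and libraries 18426241 to 27713395. The sorted cells held abundant astrocyte markers, with 14 marker genes summing to 18930 to 31096 CPM per pool, and radial glia markers, with 10 genes summing to 506 to 810 CPM. Oligodendrocyte markers (10 genes, 2431 to 6608 CPM) and precursor markers (8 genes, 1321 to 3841 CPM) were also present, so the levels below describe a mixture. Excitatory neuron (10 genes, 342 to 928 CPM) and microglia markers (8 genes, 248 to 695 CPM) were below the astrocyte, oligodendrocyte and precursor sums. Their ranges overlapped that of the radial glia markers. Endothelial (8 genes, 9.70 to 108 CPM) and red blood cell markers (5 genes, 14.3 to 392 CPM) lay below the radial glia range. WT pool 1 had the highest neuron, endothelial and red blood cell sums (928, 108 and 392 CPM) and the lowest levels of Slc1a3, Slc1a2 and Slc6a11. The part of these markers in the members' values was not tested. Without WT pool 1 the log2 fold changes of CKO over WT described below were 0.24 for Slc1a3, 0.18 for Slc1a2, -0.09 for Glul, -0.09 for Slc38a3, 0.27 for Slc6a11 and 0.51 for Slc6a9. In such bulk samples, fewer cells of a type and less RNA per cell cannot be told apart. Notch2 itself stood at 99.3, 146 and 303 CPM in WT pools 1, 2 and 3 and at 65.3, 116 and 121 CPM in the CKO pools, and the genotypes overlapped (log2 fold change -0.86, SE 0.45, edgeR adjusted p = 0.790). Reads from exons that remain after recombination are counted too, so this value checks the labels only in part.

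The promoters of Slc1a3 and Slc6a11 are shown because these were the most abundant member and the member whose pools separated by genotype. The sequences are the 100 bases before the RefSeq start site on GRCm38.p6, read 5′ to 3′, with CCAAT or GGGCGG, on either strand, in capitals.
Slc1a3 (chr15:8710808-8710907, minus strand): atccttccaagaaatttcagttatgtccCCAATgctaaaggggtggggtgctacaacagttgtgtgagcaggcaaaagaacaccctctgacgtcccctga
Slc6a11 (chr6:114131141-114131240, plus strand): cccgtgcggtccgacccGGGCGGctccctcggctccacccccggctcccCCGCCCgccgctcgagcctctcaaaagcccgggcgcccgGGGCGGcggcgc
The Slc6a11 stretch was GC-rich (84% G or C, 17 CpG) and the Slc1a3 stretch was not (49%, 1 CpG), against a median of 55% and 3 CpG over all 32851 promoters in the table. The core letters of the motif of Rbpj, the DNA-binding partner of Notch, TGGGAA on either strand, occurred within the 250 bases before the start in 21.6% of all promoters and in none of the 7 start sites listed for Slc1a2, Slc1a3, Glul, Slc6a11 and Slc6a9. This says only that these letters are not in that window. CCAAT occurred in 33.9% of all promoters and in those of Slc1a3 and Glul. GGGCGG occurred in 32.7% and in those of Slc1a3, Glul, Slc6a11 and Slc6a9.

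Compared per length of exon sequence, as TPM, which divides counts by exon length before scaling each pool to the same sum, the genes spanned more than 2 orders of magnitude. Slc1a3 (chromosome 15, 8634124 to 8710764, minus strand) had the highest mean level, 2026 ± 702 TPM (SD, n = 6 pools), and ranked 38 among 46294 genes with an annotated length. Glul (chromosome 1, 153899944 to 153909723, plus strand) followed with 1287 ± 196 TPM and Slc1a2 (chromosome 2, 102658659 to 102790784, plus strand) with 493 ± 109 TPM. Slc38a3 (chromosome 9, 107650634 to 107669530, minus strand) stood at 117 ± 25.1 TPM and Slc6a11 (chromosome 6, 114131241 to 114249952, plus strand) at 47.1 ± 13.8 TPM. Slc6a9 (chromosome 4, 117834506 to 117875198, plus strand) was the lowest at 14.0 ± 7.93 TPM. GENCODE M21 (GRCm38) gave the positions, and all 6 are protein-coding genes. The order held in 6 of 6 pools for every pair of neighbours except Slc1a3 over Glul, which held in 5 of 6, WT pool 1 having 871 TPM of Slc1a3 against 1155 TPM of Glul. Together the 6 genes took 0.800% to 1.58% of the reads in genes of a pool.

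GLAST, the more abundant glutamate transporter, was measured at 3838, 5668 and 8289 CPM of Slc1a3 in WT pools 1, 2 and 3 and at 7444, 6902 and 10122 CPM in CKO pools 1, 2 and 3. WT pools 1 and 2 were the lowest of all, but WT pool 3 lay within the CKO range. The means were 5932 ± 2237 and 8156 ± 1724 CPM (SD, n = 3 pools each). The log2 fold change of CKO over WT was 0.46 (SE 0.31) and did not pass (edgeR quasi-likelihood adjusted p = 0.800; exact permutation p = 0.3, with 0.1 the lowest that 3 against 3 pools allow). It was 0.78 without WT pool 3.

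GLT-1 varied less. Slc1a2 stood at 2198, 2792 and 2354 CPM in the WT pools and at 2684, 2516 and 3432 CPM in the CKO pools. WT pool 2 exceeded CKO pools 1 and 2, so the ranges met. CKO over WT came to 0.23 on the log2 scale (SE 0.20, edgeR adjusted p = 0.820, exact permutation p = 0.3). It was 0.12 without CKO pool 3 and 0.39 without WT pool 2.

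**Figure D1:**
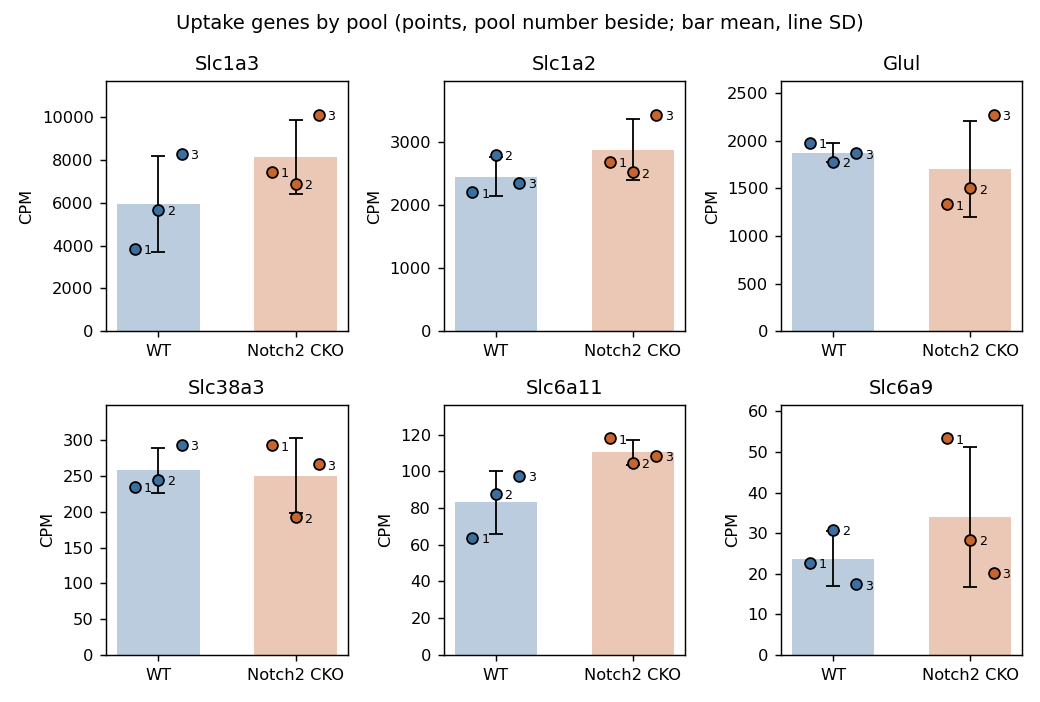
CPM of the 6 uptake genes (vertical axes from 0) in the 3 WT and 3 Notch2 CKO pools, with each point a pool, bars the mean and lines the SD. The genotypes overlap in each panel except that of Slc6a11, where the CKO pools sit at 105 to 118 CPM and the WT pools at 63.9 to 97.4 CPM.

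Glutamine synthetase was even across the WT pools and spread across the CKO pools. Glul stood at 1981, 1781 and 1870 CPM in the WT pools and at 1334, 1503 and 2276 CPM in the CKO pools. CKO pools 1 and 2 lay below every WT pool, and CKO pool 3 above them all. On the log2 scale the change was -0.14 (SE 0.24, edgeR adjusted p = 0.895, exact permutation p = 0.5) and 0.02 without CKO pool 1. CKO pool 3 also had the highest summed astrocyte markers, 31096 CPM against 18930 to 23418 CPM in the other pools, and the part of this in the Glul level was not tested.

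Slc38a3, the glutamine exporter, had 235, 245 and 294 CPM in the WT pools and 293, 192 and 267 CPM in the CKO pools. Its range lay within 1.53-fold over the 6 pools, the narrowest of the 6 genes. CKO over WT came to -0.04 (SE 0.23, edgeR adjusted p = 0.969), 0.06 without WT pool 3 and 0.12 without CKO pool 2.

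GAT3 was the only member whose pools separated by genotype. Slc6a11 stood at 63.9, 87.8 and 97.4 CPM in the WT pools and at 118, 105 and 108 CPM in the CKO pools. Every CKO pool was above every WT pool, with means of 83.0 ± 17.3 and 110 ± 6.84 CPM. The change of 0.41 on the log2 scale (SE 0.24) fell short of the threshold (edgeR adjusted p = 0.794, 0.130 unadjusted), and the exact permutation p was 0.1. Of all 21477 genes tested, 7.67% had every CKO pool above every WT pool and 8.17% had every CKO pool below, so 1 of 6 genes is near that share.

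GlyT1 was the most variable member. Slc6a9 stood at 22.7, 30.9 and 17.4 CPM in the WT pools and at 53.4, 28.4 and 20.2 CPM in the CKO pools. Only CKO pool 1 lay above the WT range. The change was 0.52 (SE 0.45, edgeR adjusted p = 0.820, exact permutation p = 0.5) and 0.05 without CKO pool 1. The gene overlaps Ccdc24 and B4galt2 on the opposite strand, with 1429 and 46 shared exon bases, and the library preparation does not mark strand. Reads there may have been set aside as ambiguous. Ccdc24 stood at 0.236 to 1.35 CPM and B4galt2 at 1.30 to 21.9 CPM.

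In all, 0 of the 6 genes passed an adjusted p under 0.05 in edgeR, and 0 had an unadjusted p under 0.05. The background was 0% of genes at the adjusted threshold and 5.91% (1269 of 21477) at the unadjusted one. DESeq2 called 129 genes (0.601%) and limma voom with quality weights called 0, with no uptake gene among them in either (smallest adjusted p = 0.664 in DESeq2, for Slc6a11, and 0.763 in limma, for Slc1a3 and Slc6a11). In the limma fit the unadjusted p of Slc1a3 was 0.0433. The 6 genes had a median log2 fold change of 0.32 and all genes one of -0.06. On simulated pools, edgeR recovered 0 of 46 genes changed 2-fold, 12 of 49 changed 4-fold and 32 of 48 changed 16-fold. It made 0 false calls there. The changed genes were drawn from all genes tested, whose common spread between pools (biological coefficient of variation) was 0.72. The members had less spread, 0.23 (Slc1a2) to 0.43 (Slc6a9), so these rates do not say how often a change in a member would be found. Every difference above was smaller than 2-fold.

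Ratios between members within a pool do not depend on scaling between samples. Among the 6 ratios fixed for testing, Glul over Slc1a3 separated the genotypes. There were 0.516, 0.314 and 0.226 reads of Glul per read of Slc1a3 in WT, and 0.179, 0.218 and 0.225 in CKO, and CKO pool 3 nearly reached WT pool 3. The difference of the mean log2 ratio was -0.69, with an SD of 0.60 in WT and 0.18 in CKO pools (exact permutation p = 0.1, adjusted over 6 ratios 0.4). The difference was -1.39 within library 1 and -0.11 within library 2 (exact permutation p = 0.1 and 1.0), and -0.37 without WT pool 1. Slc1a2 over Slc1a3 spread widely in WT pools (0.573, 0.492 and 0.284) and narrowly in CKO pools (0.361, 0.365 and 0.339), with a log2 difference of -0.28 (exact permutation p = 0.4). The other 4 ratios had log2 differences of -0.40 (Glul over Slc1a2), 0.20 (Slc6a11 over Slc1a2), 0.01 (Slc6a9 over Slc6a11) and 0.12 (Slc38a3 over Glul), each with overlapping pools.

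The libraries of a pool gave different values for part of these genes. Glul was lower in library 2 than in library 1 in 6 of 6 pools. The values were 2491, 2217 and 2717 CPM in library 1 of the WT pools and 1419, 1260 and 1453 CPM in library 2. In the CKO pools they were 1378, 1830 and 2837 CPM in library 1 and 1247, 1261 and 1762 CPM in library 2. The log2 fold change of library 2 over library 1 was -0.65 (SE 0.13). It did not pass in edgeR with pool as a term (adjusted p = 0.173, unadjusted p = 0.00104), and it passed in DESeq2 (adjusted p = 0.0038).

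Slc6a11 went the other way and was higher in library 2 in 6 of 6 pools. Library 1 gave 49.7, 47.7 and 25.3 CPM in the WT pools and library 2 gave 69.8, 134 and 163 CPM. The CKO pools had 101, 86.2 and 50.8 CPM in library 1 and 129, 123 and 155 CPM in library 2. Over the 6 pools this came to 1.18 on the log2 scale (SE 0.34, edgeR adjusted p = 0.223, DESeq2 adjusted p = 0.0279).

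The widest gap was that of Slc6a9, which was almost absent from library 1 of some pools. In WT pools 1, 2 and 3 it had 44, 178 and 9 reads in library 1 (1.89, 7.76 and 0.592 CPM) and 1105, 1130 and 647 reads in library 2 (37.2, 57.9 and 32.1 CPM). In CKO pools 2 and 3 it had 13.4 and 5.87 CPM in library 1 and 41.6 and 32.0 CPM in library 2. CKO pool 1 was the exception, with 58.7 CPM in library 1 and 46.6 CPM in library 2. Library 1 thus spanned 99.2-fold over the pools, and library 2 spanned 1.81-fold. Over the pools the log2 fold change came to 2.76 (SE 0.82, edgeR adjusted p = 0.226, DESeq2 adjusted p = 0.00159).

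**Figure D2:**
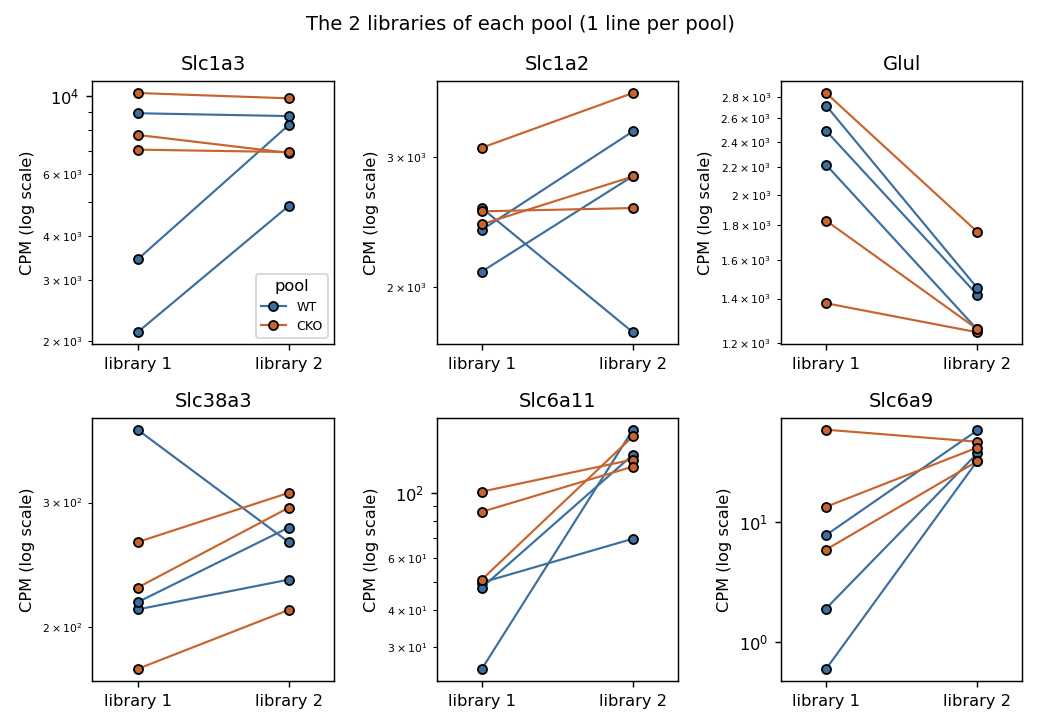
CPM (log axes) of the 6 genes in library 1 and library 2, with 1 line for each of the 3 WT and 3 CKO pools. Every line descends for Glul and ascends for Slc6a11, and for Slc6a9 the 6 pools span 0.592 to 58.7 CPM in library 1 and 32.0 to 57.9 CPM in library 2.

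Averaged over the pools, the glutamate transporters and the glutamine exporter differed less between the libraries. Slc1a3 differed in WT pools 1 and 2, with 2125 and 3426 CPM in library 1 and 4865 and 8273 CPM in library 2, while the other 4 pools stayed within 1.13-fold. Its log2 fold change was 0.36 (SE 0.24, edgeR adjusted p = 0.517). Slc1a2 and Slc38a3 had 0.13 (SE 0.15) and 0.14 (SE 0.16), and both were higher in library 2 in 5 of 6 pools, the exceptions being WT pool 1 and WT pool 3.

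Across all 18267 genes tested between libraries, edgeR called 0 (0%), 2627 (14.4%) had an unadjusted p under 0.05, and DESeq2 called 2093 (11.5%). The 3 members past the unadjusted threshold, Glul, Slc6a11 and Slc6a9, were the 3 that DESeq2 called. By direction alone, 9.1% of genes were lower in library 2 in all 6 pools, as Glul was, and 5.73% were higher in all 6, as Slc6a11 was. An exact paired permutation test over the 6 pools, added after the values were seen, gave p = 0.03125 for both, the smallest possible, and 0.09375 adjusted over the 6 genes.

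The library difference went with transcript length, and the summed astrocyte and precursor markers differed between libraries in 6 of 6 pools. The other marker sums were higher in library 2 in 2 to 5 of 6 pools. The part of length and of markers in the members' values was not tested. Among the genes whose mean log2 CPM reached 5, the median log2 fold change of library 2 over library 1 was -0.57 for the shortest of 5 equal classes (longest annotated transcript 57 to 1752 bases). It was 0.38 for the longest class (5058 bases and more). Glul (2792 bases) lay below its length class, whose median was 0.19 with quartiles of -0.21 and 0.57, and Slc6a11 (4132 bases) lay above its own, with a median of 0.36 and quartiles of -0.03 and 0.79. Slc6a9 was below the level needed for these classes and its longest transcript has 3479 bases. Of the 14 astrocyte markers 10 were above and 4 below 0 (median 0.29, against 0.10 over all genes). Aqp4, the astrocytic water channel, and Sox9, a glial transcription factor, were higher in library 2 in 6 of 6 pools (log2 fold changes 0.42 and 0.30). Aldoc, the astrocytic aldolase, and Cldn10, a claudin, were lower in 6 of 6 pools (-0.76 and -0.62). The summed markers were lower in library 2 in 6 of 6 pools (20406 to 34150 CPM in library 1, 18097 to 27952 CPM in library 2), and Aldoc, at 7179 to 14474 CPM per pool, was a large share of that sum. Summed precursor markers were higher in library 2 in 6 of 6 pools (887 to 2650 CPM and 1664 to 4833 CPM), led by the receptor gene Pdgfra at 1.85. Of the 8 precursor markers 6 were above 0 and 2 below, Olig2 at -0.36 and C1ql1 at -0.49. Aqp4, Sox9, Aldoc, Cldn10 and Pdgfra were picked from their lists after the values were seen.

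**Figure D3:**
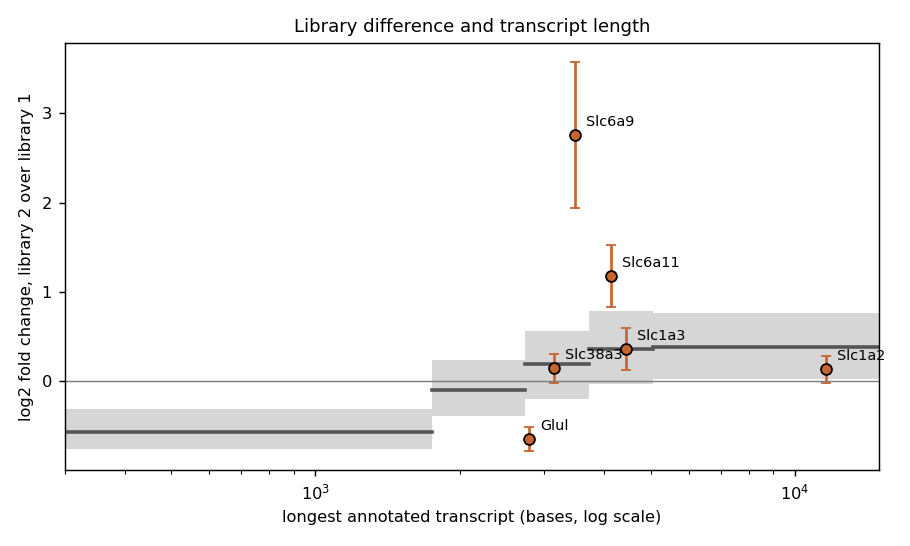
Log2 fold change of library 2 over library 1 (vertical axis) against the longest annotated transcript in bases (log axis). Points are the 6 uptake genes with SE. Grey bands are the quartiles and dark lines the median in each of 5 length classes. The classes hold genes whose mean log2 CPM reached 5, a level that Slc6a9 did not reach. The median goes from -0.57 in the shortest class to 0.38 in the longest, and Glul, Slc6a11 and Slc6a9 lie outside the bands.

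For 5 of the 6 genes the genotype value was farther from 0 in library 1 than in library 2, and for Slc1a2 the values were nearly equal (0.21 and 0.20). Within library 1 Slc6a11 averaged 40.9 ± 13.5 CPM (WT) and 79.3 ± 25.7 CPM (CKO; log2 fold change 0.97, SE 0.48, edgeR adjusted p = 0.758). The closest pools there were 49.7 CPM in WT and 50.8 CPM in CKO. Within library 2 it stood at 123 ± 47.9 and 136 ± 17.2 CPM with overlapping pools (0.14, SE 0.32). Slc6a9 stood at 3.41 ± 3.82 and 25.99 ± 28.6 CPM within library 1 (2.93, SE 1.26, edgeR adjusted p = 0.758, unadjusted p = 0.0493) and at 42.4 ± 13.6 and 40.1 ± 7.45 CPM within library 2 (-0.10, SE 0.36). Slc1a3 had 0.81 (SE 0.51) within library 1 and 0.10 (SE 0.25) within library 2. Glul turned from -0.28 to 0.03 and Slc38a3 from -0.26 to 0.06. As a difference of mean log2 CPM, the library 1 value of Slc6a9 was 3.02. It was 2.12 without WT pool 3, 2.11 without CKO pool 1, 3.98 without WT pool 2 and 3.77 without CKO pool 3.

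The difference of the genotype effect between libraries was tested as an interaction. It was -2.99 (SE 1.11) for Slc6a9 and -0.90 (SE 0.37) for Slc1a3, with unadjusted p of 0.0329 and 0.0467, where 4.87% of all genes had one under 0.05. After adjustment neither passed (edgeR adjusted p = 0.958 for both, 0 genes called, 0%), and the other 4 members had an unadjusted p of 0.117 to 0.875. On simulated libraries this interaction test recovered 0 of 50 genes changed 4-fold and 8 of 49 changed 16-fold. These rates are for genes drawn from all those tested, not for the members.

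**Figure D4:**
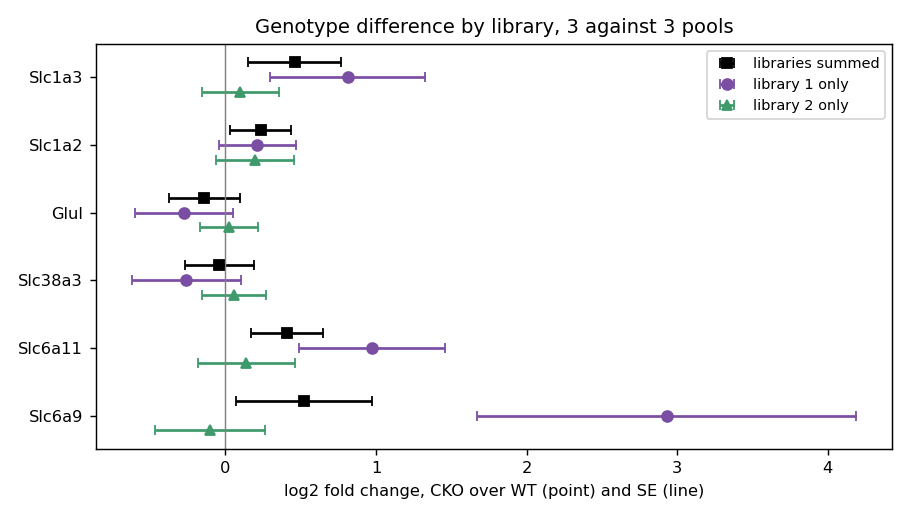
Log2 fold change of CKO over WT (points) with SE (lines) for the 6 genes, from the summed libraries, library 1 alone and library 2 alone. Library 2 values lie between -0.10 and 0.20, and library 1 values of Slc1a3, Slc6a11 and Slc6a9 lie at 0.81, 0.97 and 2.93.

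Other genes of transmitter uptake and recycling were read from fixed lists, and 0 genes passed the adjusted threshold between genotypes in any of them. Of 12 further uptake transporters 8 were tested, 3 above and 5 below 0 (median log2 fold change -0.17). Slc1a4, a neutral amino acid carrier, averaged 218 ± 47.6 CPM (WT) and 289 ± 67.5 CPM (CKO) with overlapping pools. Of 7 glutamine and neutral amino acid transport genes, 6 were tested, 4 above and 2 below 0 (median 0.13), and Slc3a2, the shared heavy chain of such carriers, was the highest at 584 ± 105 and 543 ± 141 CPM. Slc38a2, the system A glutamine carrier, stood at 73.3 ± 10.1 and 91.7 ± 39.6 CPM, and Slc7a8, a light chain, at 7.18 ± 5.27 and 12.7 ± 10.2 CPM.

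Enzymes that handle glutamate, GABA and glycine had members at the edge in both directions. Of 15 glutamate and GABA enzymes, 7 were above and 8 below 0 (median -0.10), with 2 upward and 1 downward at an unadjusted p under 0.05. Glud1, glutamate dehydrogenase, averaged 201 ± 24.4 CPM (WT) and 289 ± 27.9 CPM (CKO; log2 fold change 0.52, SE 0.20, edgeR adjusted p = 0.790). Every CKO pool exceeded every WT pool. Asns, asparagine synthetase, which consumes glutamine, had 76.1 ± 24.9 and 31.9 ± 13.4 CPM (-1.26, SE 0.42, edgeR adjusted p = 0.790), with every CKO pool below every WT pool. Abat, the GABA transaminase, stood at 142 ± 19.8 and 186 ± 32.9 CPM with overlapping pools. Of 9 genes of glycine cleavage and serine synthesis, 4 were above and 5 below 0 (median -0.19), with 1 upward and 2 downward at an unadjusted p under 0.05. Dld, a subunit of the glycine cleavage system shared with other dehydrogenases, had 83.2 ± 9.14 and 130 ± 6.73 CPM, and Phgdh, the first enzyme of serine synthesis, 212 ± 33.8 and 129 ± 37.9 CPM (edgeR adjusted p = 0.790 for both). Psat1, of the same route, stood at 382 ± 86.6 and 336 ± 15.9 CPM. Phgdh (chromosome 3, 98313170 to 98339990) lies near the targeted gene Notch2 (chromosome 3, 98013527 to 98150361). The part of this position in the Phgdh values was not tested. In all genes tested 15.8% had pools that did not overlap, and in these 2 lists 8 of 24 did. An unadjusted edgeR p under 0.05 was found for 5.91% of all 21477 genes tested, 647 upward and 622 downward.

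Of 10 ion pumps and channels that sustain the gradients for uptake, 7 were above and 3 below 0 (median 0.13). Atp1b2, a sodium pump beta subunit of astroglia, averaged 2835 ± 842 CPM (WT) against 3568 ± 867 CPM (CKO). Kcnj10, the Kir4.1 potassium channel, had 108 ± 27.8 and 191 ± 40.9 CPM with every CKO pool above every WT pool (0.82, SE 0.27, edgeR adjusted p = 0.790). Of 12 genes reported to regulate these transporters, 8 were above and 4 below 0 (median 0.17), with Nedd4, a ubiquitin ligase, at 294 ± 79.2 and 335 ± 36.0 CPM and Arl6ip5 at 253 ± 92.4 and 210 ± 33.3 CPM. Nedd4l, a related ligase, stood at 17.8 ± 6.30 and 29.1 ± 7.74 CPM, and Arhgef11 at 6.01 ± 2.75 and 12.03 ± 1.18 CPM. The 14 astrocyte markers, none of them an uptake gene, had 9 above and 5 below 0 (median 0.27), close to the 6 uptake genes.

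**Figure D5:**
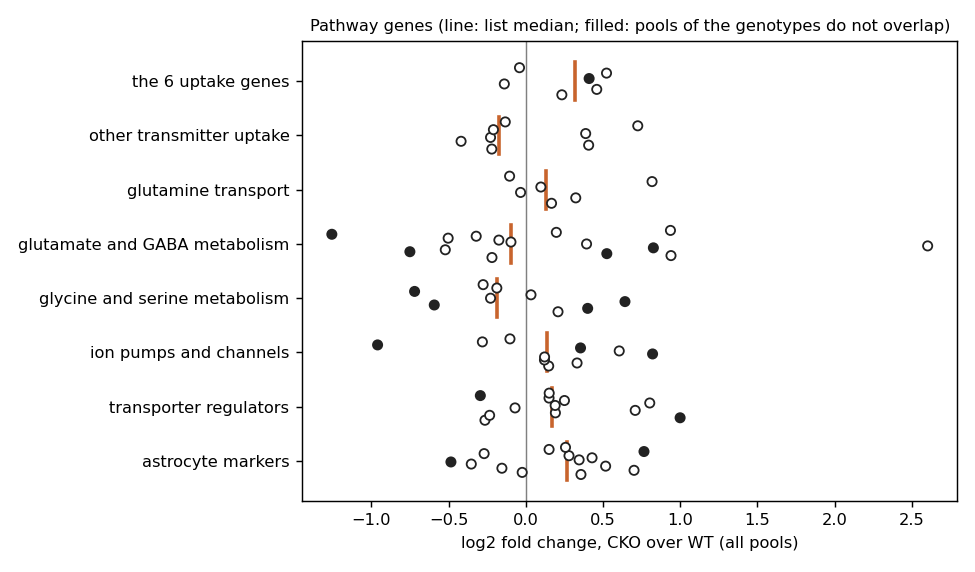
Log2 fold change of CKO over WT (horizontal axis) for each tested gene of the fixed lists, with a line at the list median and filled points where pools of the genotypes do not overlap. The median of the 6 uptake genes is 0.32 and that of the astrocyte markers 0.27, and no point passed the adjusted threshold.

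The members did not share a single pattern over the pools. Likeness was measured as the root mean square (RMS) difference of log2 CPM, each gene centred on its mean over the 6 pools. Slc1a2 and Slc6a11 were the closest pair (0.24 log2 units), followed by Slc1a3 and Slc6a11 (0.24), and Glul and Slc6a9 were the farthest (0.75). Among 5097 other genes (5098 for Slc6a9) whose mean log2 CPM reached 5, those nearest to Slc1a3 were Slco1c1, a thyroid hormone transporter, Plcd4 and Ank2 (0.08 to 0.09, where the median gene was at 0.55). Nearest to Slc1a2 were Pdpn, a glial membrane glycoprotein, Dclk1 and Trappc12 (0.07 to 0.08, median gene 0.45), and nearest to Glul were Abhd6, a monoacylglycerol lipase, Dnaja3 and Tmem59 (0.09 to 0.11, median gene 0.46). For Slc6a11 they were Sept8, Gng12 and Nfe2l2 (0.06 to 0.07, median gene 0.46), for Slc38a3 Ttyh3, Add1 and Elmo2 (0.04 to 0.09, median gene 0.42), and for Slc6a9 Man1b1, Sowahc and Fat1 (0.11 to 0.22, median gene 0.68). These are descriptions over 6 pools, with no test.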

How the data were processed

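Raw read counts per gene symbol were deposited by the authors, 1 table per run (24 runs). Bowtie2, HTSeq and GRCm38 are named per the submitters' processing notes, with versions, annotation and counting settings not given in the sources used here. The 5 summary lines were left out; they held 16.0% to 35.3% (no gene), 11.2% to 21.7% (unaligned) and 2.51% to 3.43% (ambiguous) of reads per pool. Counts of a library's lanes agreed within sampling noise (chi-square per degree of freedom 0.986 to 1.01). Counts of the 2 libraries of a pool did not (70.7 to 351). Lanes and libraries were summed per pool (n = 3 per genotype). The labels do not say that pools shared no animal, so each p reflects only how these pools vary. Counts were tested with edgeR 4.0.16 in R 4.3.3 (filterByExpr, TMM, robust quasi-likelihood F test, Benjamini-Hochberg over 21477 genes), and between libraries with pool as a term (18267 genes). Alternatives used DESeq2 1.42.0, limma 3.58.1, other scaling, filters and left-out pools. The count tests were tested on simulated data. Without molecular identifiers, depth speaks to counting error alone; 1 read was 0.0175 to 0.0265 CPM per pool. TPM used the union of GENCODE M21 exons, matched by symbol for 95.8% of symbols. Promoters were matched for 5 of the 6 genes. Named genes were the 6 members, from each list the 2 highest and the 2 of smallest p, and the 3 most alike in pattern to each member, some of which are not reported here; other genes are named as markers or for overlaps. The 6 genes and all lists were chosen with earlier results of these data known.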

Additional observations from a re-analysis of the deposited data

How the results depend on the processing

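Of the genotype values, those of Slc1a2, Slc1a3 and Slc6a11 kept their sign under every alternative, and no member passed in any of them. Leaving out each pool in turn gave 0.12 to 0.39, 0.24 to 0.78 and 0.27 to 0.54 for these, -0.37 to 0.019 for Glul (0.019 without CKO pool 1), 0.05 to 0.83 for Slc6a9 and -0.16 to 0.12 for Slc38a3. With library 2 alone the sign turned for Glul (0.025), Slc6a9 (-0.10) and Slc38a3 (0.057), and for the ratios Slc1a2 over Slc1a3 (0.10), Slc6a11 over Slc1a2 (-0.016) and Slc6a9 over Slc6a11 (-0.28). Slc38a3 also turned with total count scaling (0.052) and limma voom (0.048). Leaving out pools gave -0.32 to 0.32 for Slc6a9 over Slc6a11 and -0.16 to 0.29 for Slc38a3 over Glul. The cause was not tested. DESeq2 called 129 genes between genotypes where edgeR called 0, and made 139 false calls on simulated pools. Between libraries DESeq2 called 2093 genes and edgeR without a filter 6, against 0; in DESeq2 Glul (-0.69), Slc6a11 (1.14) and Slc6a9 (2.73) passed. Total count scaling moved the median of all genes between libraries from 0.10 to 0.23 and turned no member's sign. The replicate block on pool numbers called 0 genes, with 889 at an unadjusted p under 0.05 against 1269, and gave 0.51 for Slc1a3. Same-numbered pools correlated at 0.06, 0.02 and -0.03 in their deviations. No pairing by number showed in these values, which rest on 3 pools per genotype and cannot exclude one. With the longest transcript as length Slc1a3 stood at 3199 TPM and exceeded Glul in 6 of 6 pools.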

Other observations

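Transporters of other cell types were near the detection limit. Slc17a7 and Slc17a6, the vesicular glutamate transporters of excitatory neurons, had 1.66 ± 1.86 and 1.25 ± 1.28 CPM in WT pools and 2.83 ± 1.74 and 1.23 ± 0.65 CPM in CKO pools (SD, n = 3 each), and Slc6a17, a vesicular carrier of neutral amino acids, had 1.18 ± 1.02 and 3.40 ± 2.51 CPM. Slc6a5, the neuronal glycine transporter GlyT2, had at most 0.942 CPM in any pool. Slc1a1, the glutamate transporter EAAC1, was clearly measured at 160 ± 63.3 and 138 ± 50.04 CPM, and Slc7a11, the cystine-glutamate exchanger, at 142 ± 25.8 and 129 ± 51.7 CPM. Slc38a5, a further system N glutamine transporter chosen after its values were seen, had 2.22, 0.0944 and 7.47 CPM in WT pools 1, 2 and 3 and 0, 0.0449 and 0 CPM in the CKO pools. It was too low in most pools to be tested.

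Gad1, which makes GABA and is counted here among both the metabolic genes and the interneuron markers, had 28.3, 33.0 and 18.6 CPM in the WT pools and 56.7, 50.1 and 34.9 CPM in the CKO pools. Every CKO pool was above every WT pool, and the log2 fold change of 0.83 did not pass (edgeR adjusted p = 0.790). Gad1 too was chosen after its values were seen. Of the 8 interneuron markers 6 were tested, 3 above and 3 below 0 (median log2 fold change -0.24). Summed interneuron markers, Gad1 included, stood at 146, 43.9 and 34.97 CPM in the WT pools and at 71.9, 69.6 and 57.0 CPM in the CKO pools, which overlapped.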
